A study of Mus musculus with 6 samples.

Results

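Long noncoding RNAs (lncRNAs) were described in haematopoietic stem cells (HSCs) of obese db/db mice and their WT littermates. The set held 10 of the 23955 gene symbols in the deposited table and was given by name: I730030J21Rik, 6 hosts of small nucleolar RNAs (Gas5, Snhg1, Snhg3, Snhg6, Snhg8 and Snhg12), the nuclear RNAs Malat1 and Neat1, and the imprinted antisense RNA Kcnq1ot1. All 10 were in the table and passed the filter of a mean of at least 1 TPM. The members were chosen by name with the TPM values of these same libraries and their difference between db/db and WT in view, I730030J21Rik for that difference, so differences between the genotypes are given for all 10 as a description, and where calls of the fit across all genes are counted, nothing is read from a member's call.

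The db/db mice, of the C57BL/6 strain, carry a mutant leptin receptor gene on both chromosomes and are obese, and all mice were 4 months old. In each of 3 experiments 20000 bone marrow cells per genotype were sorted as lineage-negative, Sca-1+, c-Kit+, CD150+ and CD48- cells, so there were 3 libraries per genotype, numbered here by experiment. The mutation is present in every cell of the animal, so effects inside the HSC and effects of the obese body cannot be told apart. How many animals went into a library is not given, so the spread is that between sorted samples.

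Values are TPM, which take transcript length into account and have the same total in each library. TPM keeps no read depth, so no counting error could be attached. Of the genes behind the sorting gate, Kit was at 224 to 347 TPM in db/db and 164 to 350 TPM in WT libraries, Ly6a (Sca-1) at 361 to 429 TPM in db/db and 308 to 463 TPM in WT, and Slamf1 (CD150) at 24.96 to 38.9 TPM in db/db and 11.9 to 23.99 TPM in WT. Cd48, the marker excluded by the sort, was at 1.63 to 21.4 TPM in db/db and 1.09 to 5.35 TPM in WT libraries.

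A lncRNA is a transcript without a long reading frame, and the members act in different ways. Hosts of small nucleolar RNAs carry these guides of ribosomal RNA modification in their introns, and the spliced exons of several, Gas5 among them, are kept low by nonsense-mediated decay, the pathway that removes transcripts with early stop codons. Malat1 lies in nuclear speckles beside splicing factors, Neat1 forms the scaffold of paraspeckles, and Kcnq1ot1 is made from the paternal chromosome and silences its imprinted neighbours, among them the cell-cycle inhibitor Cdkn1c. Imprinted genes, nucleolar function and cell-cycle restraint are all known to matter for the quiescence of HSCs.

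I730030J21Rik is annotated by RefSeq as a lncRNA on the minus strand of chromosome 15, between the glycosyltransferase gene Galnt6 and the bicarbonate transporter gene Slc4a8. No role is given for it here. Its promoter is printed because this member had the largest difference between the genotypes, and the capitals mark a cAMP response element, TGACGTCA, which reads the same on both strands. The 300 bases run from 250 bases before to 50 bases after the annotated start (RefSeq, GRCm38.p6, chr15:100732688-100732987, minus strand).
I730030J21Rik promoter: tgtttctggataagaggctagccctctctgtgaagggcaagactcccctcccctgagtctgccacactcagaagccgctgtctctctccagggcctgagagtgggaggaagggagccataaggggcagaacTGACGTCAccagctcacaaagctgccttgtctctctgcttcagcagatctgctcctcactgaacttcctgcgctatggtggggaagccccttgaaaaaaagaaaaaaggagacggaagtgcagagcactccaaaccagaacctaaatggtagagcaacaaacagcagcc

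The element starts 119 bases before the annotated start. It was looked for after the sequence had been read, and 1.79% of all 32851 promoters of this length hold it. Among the 8 members with a promoter in the table, 1 of the 2 promoters of Gas5 holds it too, 46 bases before its start. A match of letters does not show that a factor binds there.

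I730030J21Rik was at 642, 1003 and 744 TPM in db/db libraries 1, 2 and 3, against 181, 166 and 212 TPM in WT libraries 1, 2 and 3. Every db/db library was above every WT library, and the 3 WT libraries lay close together. The means were 796 ± 186 TPM in db/db and 186 ± 23.6 TPM in WT (SD, n = 3 each), a ratio of 4.27. On the log2(TPM + 1) scale the difference was 2.07 (SE 0.24), or 1.89 relative to the median of all genes, which was itself 0.18 higher in db/db. Within experiments 1, 2 and 3 the difference was 1.82, 2.59 and 1.80. In bulk samples a change in the share of cells that express a gene and a change in the RNA per cell cannot be told apart.

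I730030J21Rik also stood higher among the lncRNAs of db/db cells. RefSeq gives the lncRNA type to 1805 symbols of the table, of which 998 were at 0 in every library. I730030J21Rik ranked 2 among them in each db/db library and 7, 8 and 8 in WT libraries 1, 2 and 3. It made up 7.86%, 10.1% and 7.43% of all lncRNA TPM in db/db libraries, against 2.37% to 2.50% in WT libraries. In rank among all symbols it lay between 138 and 178 in db/db libraries and between 518 and 558 in WT libraries.

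**Figure D1:**
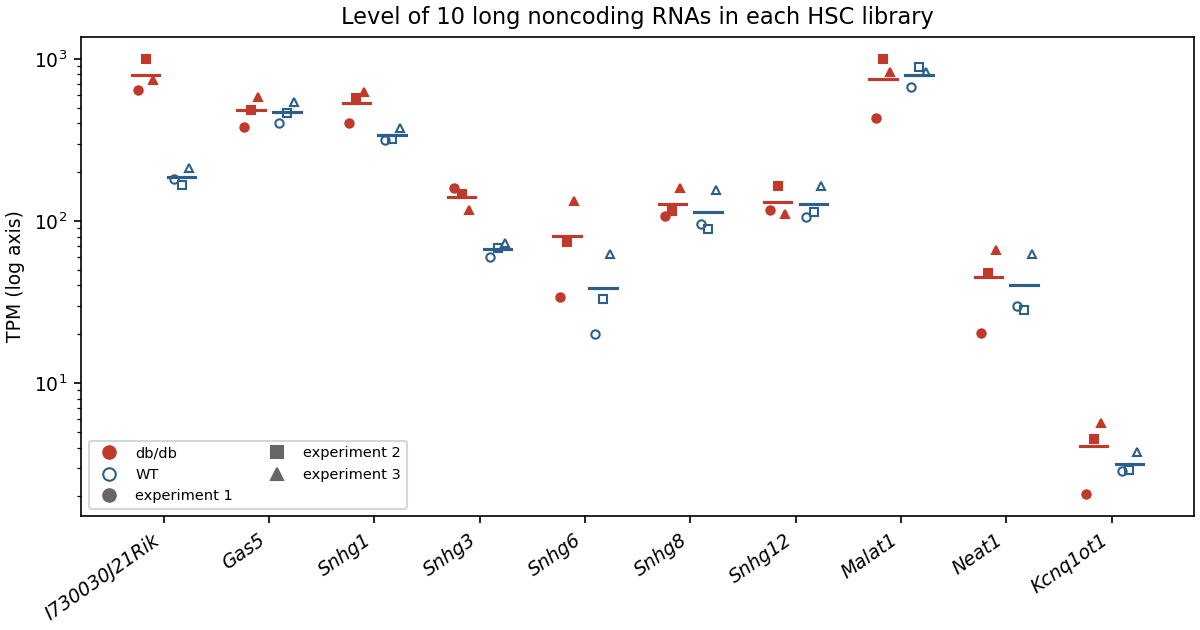
TPM of the 10 lncRNAs on a log axis, with 1 point per library (filled red for db/db, open blue for WT, shapes for the experiments) and a bar at the mean of 3 libraries. I730030J21Rik lies at 642 to 1003 TPM in db/db and 166 to 212 TPM in WT, while the points of Malat1 and Gas5 overlap.

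The spliced 654-base transcript of I730030J21Rik has 3 exons and ends in a poly(A) signal. The library kit selects poly(A) RNA, so the last 80 bases of this transcript are set beside those of Malat1 and Neat1, with the signals AATAAA or ATTAAA in capitals. These sequences are from GENCODE release M21 on GRCm38.
I730030J21Rik: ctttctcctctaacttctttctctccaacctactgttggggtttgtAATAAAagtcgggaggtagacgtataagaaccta
Malat1: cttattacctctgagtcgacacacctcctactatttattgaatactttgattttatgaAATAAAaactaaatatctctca
Neat1: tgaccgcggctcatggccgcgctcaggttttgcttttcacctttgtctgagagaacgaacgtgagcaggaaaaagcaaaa

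The 20771-base Neat1 transcript holds neither signal there. Long Neat1 and mature Malat1 are known to end in an A-rich tract and a triple helix in place of a poly(A) tail, so a poly(A) library may count them incompletely. Among the other 7 members, each longest spliced transcript has at least 1 of these signals in its last 80 bases. No transcript of another GENCODE gene matched I730030J21Rik over 75 bases or more at 95% identity, the read length being 75 bases. Malat1 had such matches in 248 other genes, Kcnq1ot1 in 68, Neat1 in 16, Snhg3 in 3 and Snhg12 in 1. For Snhg3 the longest was 312 bases in Gm17300, on its opposite strand and not a symbol of the deposited table. For Snhg12 it was 137 bases in Snora16a, which lies inside Snhg12. Where the annotation used for counting held both genes of a match, reads from the shared stretch could be divided between them.

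Genes that flank I730030J21Rik were checked for their own levels. Galnt6 was at 74.8, 49.8 and 70.1 TPM in db/db libraries against 35.6, 36.3 and 58.2 TPM in WT libraries. The 2 ranges of Galnt6 overlapped, and its log2 difference of 0.59 (SE 0.31) missed the threshold in limma, fitted across all genes (Benjamini-Hochberg adjusted p = 0.919). Cela1, an elastase gene beyond it, had overlapping ranges too and a log2 difference of -0.06. Slc4a8, on the other side, was at most 0.18 TPM in db/db and 0.23 TPM in WT libraries. Over the symbols next to all 10 members, 2 on each side, 22 of 36 were tested and 0 passed in limma. These symbols include small nucleolar RNA genes that lie inside their hosts. In that fit 2 had an unadjusted p under 0.05, Phactr4 beside Snhg3 and Snora44 inside Snhg12, a level that 5.35% of all genes reached.

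Markers of other cells were compared in the same libraries. The 6 granulocyte genes (S100a8, S100a9, Ngp, Camp, Ltf and Lcn2) were all detected. They summed to 3587, 1499 and 1342 TPM in db/db libraries 1, 2 and 3, against 4326, 178 and 256 TPM in WT libraries. The sum was thus lower in db/db in experiment 1 and higher in experiments 2 and 3. Of 6 erythroid genes, Hba-a2 was at 0 in every library, and the sum was 276 to 1357 TPM in db/db against 65.0 to 129 TPM in WT libraries, most of it Hbb-b2, without overlap. The 3 mast cell and basophil genes summed to 5.01 to 14.95 TPM in db/db and 0.67 to 2.93 TPM in WT, with Mcpt8 at 0 throughout. Fcer1a was at 0 apart from 0.52 TPM in WT library 2, so the db/db sum was Cpa3 alone. The part of the granulocyte and erythroid genes and of Cpa3 in the result for I730030J21Rik was not tested.

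Sums of the remaining marker lists overlapped between the genotypes. The 5 macrophage genes summed to 10.5 to 16.6 TPM in db/db and 0.58 to 34.1 TPM in WT libraries. The 5 B cell genes summed to 28.8 to 60.7 TPM in db/db and 33.1 to 61.2 TPM in WT, with Ms4a1 at 0 in every library. The 5 T and NK cell genes summed to 6.80 to 8.65 TPM in db/db and 3.86 to 12.7 TPM in WT, with Cd3e and Ncr1 at 0. The 5 megakaryocyte genes summed to 464 to 759 TPM in db/db and 359 to 637 TPM in WT.

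Profiles most like that of I730030J21Rik were sought among the 7592 genes that averaged 10 TPM or more. Likeness was the root-mean-square distance between log2(TPM + 1) values of the 6 libraries, each gene centred on its own mean. The nearest was P2rx7, an ATP-gated ion channel gene, at a distance of 0.30. P2rx7 was at 26.6, 25.3 and 16.7 TPM in db/db libraries against 4.16 to 4.87 TPM in WT libraries, without overlap. Next came Ptcd1, a mitochondrial RNA-binding protein gene (0.31), P2ry14, a nucleotide-sugar receptor gene (0.40), Acss1, a mitochondrial acetyl-CoA synthetase gene (0.41), and Flt3, a cytokine receptor gene of multipotent progenitors (0.43). All 5 had lower levels than I730030J21Rik in every library, with at most 32.2 TPM in db/db and 3.63 to 12.7 TPM in WT. Each averaged less than 10 TPM in WT, so each reached the 10 TPM limit through the db/db libraries. I730030J21Rik was chosen for its difference, so genes near it in profile share that difference by construction. Nothing is read from their separation between the genotypes. Among the other members the nearest was Snhg3, at 0.57.

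Of the 6 hosts of small nucleolar RNAs, Snhg1, Snhg3 and Snhg6 had log2 differences of 0.63 to 1.06, and Gas5, Snhg8 and Snhg12 of 0.02 to 0.19. Snhg3, the host of Snora73a and Snora73b, was at 159, 147 and 117 TPM in db/db libraries against 59.9, 68.2 and 72.6 TPM in WT libraries. The groups did not overlap, and the means were 141 ± 21.9 TPM in db/db and 66.9 ± 6.44 TPM in WT (SD, n = 3 each). The log2 difference was 1.06 (SE 0.27), or 0.88 relative to all genes, and within experiments 1, 2 and 3 it was 1.40, 1.10 and 0.68.

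Snhg1, which holds 8 annotated small nucleolar RNA genes, was at 401, 569 and 621 TPM in db/db libraries against 316, 320 and 374 TPM in WT libraries. The groups did not overlap, though db/db library 1 came near WT library 3. Its means were 530 ± 115 TPM in db/db and 337 ± 32.0 TPM in WT (SD, n = 3 each), with a log2 difference of 0.63 (SE 0.23), or 0.45 relative to all genes. Within experiments 1, 2 and 3 the difference was 0.34, 0.83 and 0.73.

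Snhg6, the host of Snord87, was at 34.1, 73.8 and 133 TPM in db/db libraries against 20.2, 33.2 and 62.9 TPM in WT libraries. Its groups overlapped because both genotypes were low in experiment 1 and high in experiment 3. Within experiments 1, 2 and 3 the log2 difference was 0.73, 1.13 and 1.07, and the fitted difference was 0.98 (SE 0.42). It was 1.48 without db/db library 1, 0.51 without db/db library 3 and 0.60 without WT library 1. Snhg6 had the widest relative spread of the 10 members within both genotypes, with an SD of 62.0% of its mean in db/db and 56.6% in WT.

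The other 3 hosts showed overlapping groups. Gas5, named for its accumulation in growth-arrested cells and able to bind the glucocorticoid receptor, was at 378, 486 and 584 TPM in db/db libraries against 404, 466 and 544 TPM in WT libraries. Snhg8, the host of Snora24, was at 107, 116 and 159 TPM in db/db against 95.6, 89.2 and 155 TPM in WT libraries. Snhg12, which holds Snora44, was at 117, 163 and 110 TPM in db/db against 105, 113 and 165 TPM in WT libraries. For Gas5 and Snhg8 the library of experiment 3 was the highest of its genotype in both cases, whereas Snhg12 was highest in experiment 2 in db/db and in experiment 3 in WT. Relative to all genes the log2 differences were -0.16 for Gas5, 0.00 for Snhg8 and -0.15 for Snhg12, with SEs of 0.23 to 0.28.

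**Figure D2:**
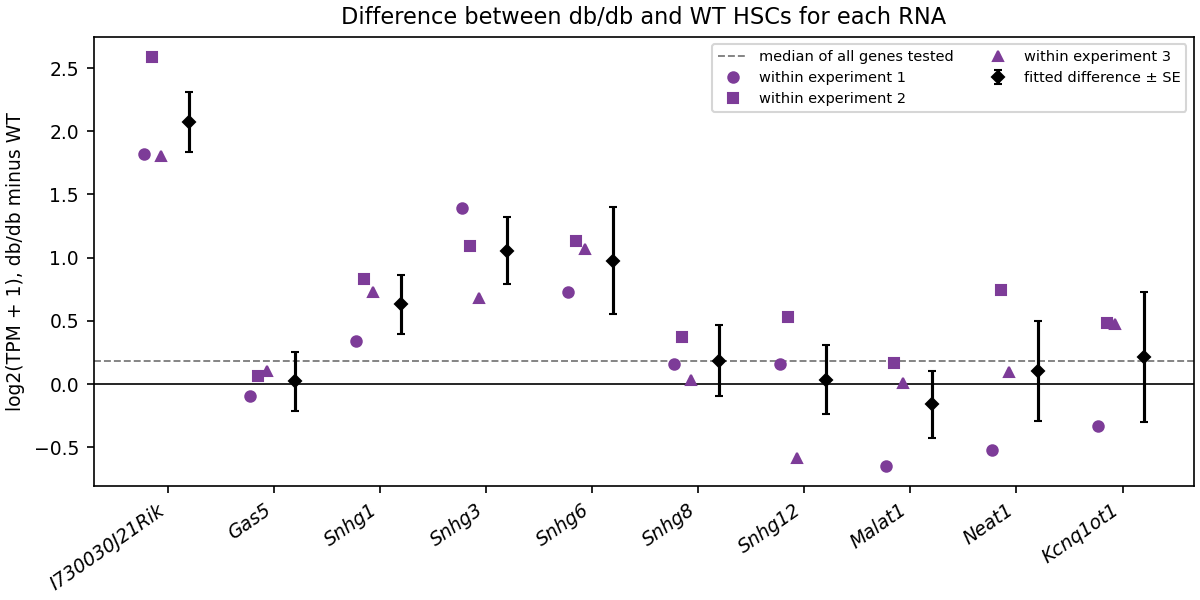
Difference in log2(TPM + 1), db/db minus WT, of each lncRNA within each experiment (purple) and in the fit over all 6 libraries with its SE (black), with the median of all genes as a dashed line at 0.18. I730030J21Rik stands at 2.07 and Snhg3 at 1.06, while Malat1 lies at -0.16.

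Some hosts overlap other genes, whose values limit how their own can be read. Snhg3 overlaps Rcc1, a chromatin-bound exchange factor gene, on the same strand, and Rcc1 was at 10.1, 14.3 and 21.1 TPM in db/db libraries against 18.5, 17.1 and 26.6 TPM in WT libraries. Rcc1 was thus lower in db/db within each experiment, whereas Snhg3 was higher, and the difference of Rcc1 missed the limma threshold (Benjamini-Hochberg adjusted p = 0.920). Snhg6 overlaps Mcmdc2 and Gas5 overlaps Zbtb37, both on the opposite strand, and neither exceeded 5.32 TPM in db/db or 2.42 TPM in WT libraries. Per the labels the library kit kept the strand, but the strand setting of the counting is not given in the sources used here.

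Hosts of small nucleolar RNAs often begin with a run of pyrimidines, the 5′ terminal oligopyrimidine tract that also opens the messages of ribosomal proteins. A C followed by at least 4 letters that are each C or T was sought on the transcribed strand within 20 bases on either side of the annotated start. It was found for 4 of the 5 hosts with a RefSeq promoter, and is shown in capitals in windows of 40 bases (RefSeq, GRCm38.p6).
Gas5, chr1:161035146-161035185, plus strand: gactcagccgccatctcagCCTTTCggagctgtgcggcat
Snhg8, chr3:123508317-123508356, minus strand: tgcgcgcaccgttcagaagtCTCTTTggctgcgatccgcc
Snhg12, chr4:132308658-132308697, plus strand: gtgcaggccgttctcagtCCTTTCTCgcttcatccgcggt
Snhg3, chr4:132353667-132353706, minus strand: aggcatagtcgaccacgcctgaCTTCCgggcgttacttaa

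The same run was present in 45.9% of all promoters and in 71.6% of the 67 promoters of listed ribosomal protein genes. Snhg1 and the first of the Gas5 promoters did not hold it, nor did Malat1, Kcnq1ot1 or I730030J21Rik. Among the 3 hosts with the larger differences, Snhg3 holds the run, Snhg1 does not and Snhg6 had no entry, and the other 3 hosts hold it in at least 1 promoter.

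The median ribosomal protein gene lay below the median of all genes. Of 78 measured, 0 passed in limma in either direction, 12 had an unadjusted p under 0.05, each lower in db/db, where 1.25% of all genes were lower at that level, and the median log2 difference was -0.24, against 0.18 over all genes tested. Relative to all genes this was -0.42, and -0.12 after quantile normalization. It was -0.67 without db/db library 1, -0.63 without WT library 3, -0.27 without db/db library 3 and -0.23 without WT library 2. Rpl10, the most abundant of those listed, averaged 10328 ± 638 TPM in db/db and 9336 ± 1371 TPM in WT (SD, n = 3 each). Rps28 averaged 2415 ± 971 TPM in db/db and 3727 ± 650 TPM in WT, and its groups overlapped. Snhg1, Snhg3 and Snhg6 thus lay on the other side of the median of all genes from the median ribosomal protein gene. Gas5 (-0.16) and Snhg12 (-0.15) lay on the same side as that gene, and Snhg8 was at 0.00. The hosts were grouped by this same difference, so nothing is read from their sides.

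Proteins that bind small nucleolar RNAs showed no call. Of 11 measured, 0 passed in limma and 0 reached an unadjusted p under 0.05, where 0.0335% and 5.35% of all genes did. The median log2 difference was -0.03, or -0.21 relative to all genes, which became -0.37 without WT library 1 and -0.07 without WT library 2. Nhp2, a core protein of the pseudouridylation particles, was at 76.9, 76.8 and 72.6 TPM in db/db against 95.6, 113 and 120 TPM in WT libraries, without overlap. Nhp2l1, which binds the other main class of particles, averaged 427 ± 39.2 TPM in db/db and 398 ± 20.8 TPM in WT (SD, n = 3 each).

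Few mature small nucleolar RNAs could be read. GENCODE places 25 such genes inside the members by name, 8 of which are symbols of the table, and 5 of these 8 were at 0 in every library. Snora44, inside Snhg12, was at 22.7, 23.2 and 7.04 TPM in db/db libraries against 0, 2.62 and 13.5 TPM in WT libraries, with overlap. The kit selects poly(A) RNA, which mature small nucleolar RNAs lack, so these values do not measure their level. Rn45s, the ribosomal RNA precursor, made up 6.34% to 8.51% of all TPM in db/db and 6.46% to 10.4% in WT libraries. The completeness of the poly(A) selection was not tested.

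Genes of nonsense-mediated decay, which acts on the spliced hosts, also gave no call. Of 15 measured, 0 passed in limma and 0 reached an unadjusted p under 0.05, where 0.0335% and 5.35% of all genes did. The median log2 difference was 0.21, close to the 0.18 of all genes. Smg6, the endonuclease of the pathway, was at 47.7, 49.0 and 47.4 TPM in db/db against 42.4, 31.2 and 38.7 TPM in WT libraries. These ranges of Smg6 were apart, and its log2 difference of 0.36 (SE 0.30) missed the limma threshold (Benjamini-Hochberg adjusted p = 0.920).

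Malat1 and Neat1 are neighbours on chromosome 19, and their levels differed widely. Malat1 was at 430, 1003 and 831 TPM in db/db libraries against 674, 896 and 827 TPM in WT libraries. The db/db library of experiment 1 was the lowest of the 6 and that of experiment 2 the highest, so the groups overlapped. The means were 755 ± 294 TPM in db/db and 799 ± 114 TPM in WT (SD, n = 3 each), with a log2 difference of -0.16 (SE 0.26).

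Neat1 was at 20.4, 47.8 and 66.4 TPM in db/db libraries against 29.8, 28.2 and 62.1 TPM in WT libraries. Its within-experiment log2 differences were -0.52, 0.74 and 0.09 and had no common sign. Those of Malat1 were -0.65, 0.16 and 0.01, in the same order of experiments, so both were lower in db/db in experiment 1. TPM depends on the transcript length assumed, and the annotated Neat1 transcripts run from 711 to 20771 bases, so its level depends on the form counted.

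Proteins of the nuclear bodies that these RNAs occupy were listed by name. Of 14 paraspeckle proteins 0 passed in limma and 0 reached an unadjusted p under 0.05, where 0.0335% and 5.35% of all genes did. Their median log2 difference was 0.25, and Nono, a core paraspeckle protein, averaged 400 ± 109 TPM in db/db and 304 ± 103 TPM in WT (SD, n = 3 each). Of 14 nuclear speckle genes 0 passed and 2 had an unadjusted p under 0.05, both higher in db/db, where 4.1% of all genes were, with a median of 0.32. Clk1, a kinase of splicing factors, was at 88.9, 155 and 131 TPM in db/db against 76.9, 52.5 and 78.1 TPM in WT libraries, and Srsf5, a splicing factor, at 582, 585 and 693 TPM against 396, 410 and 532 TPM. Both were without overlap and missed the limma threshold (Benjamini-Hochberg adjusted p = 0.754 for Clk1 and 0.919 for Srsf5).

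Kcnq1ot1 had the lowest level of the members. It was at 2.06, 4.49 and 5.66 TPM in db/db libraries against 2.85, 2.92 and 3.78 TPM in WT libraries, and the db/db range enclosed the WT range. Its log2 difference of 0.21 had an SE of 0.51. The annotated transcript is 93092 bases long, so a value of this size rests on the assumed length.

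The genes of its imprinted domain were measured beside it. Kcnq1, which Kcnq1ot1 overlaps on the opposite strand, was listed at 0 in every library. Cdkn1c was at 8.55, 48.9 and 25.2 TPM in db/db against 8.85, 12.4 and 23.5 TPM in WT libraries, with within-experiment log2 differences of -0.05, 1.90 and 0.10, so the difference came mainly from experiment 2. Cd81, a tetraspanin gene at the edge of the domain, averaged 879 ± 23.0 TPM in db/db and 839 ± 87.6 TPM in WT (SD, n = 3 each). Of the 12 genes of the domain 9 were tested, with a median log2 difference of 0.07. Of these 9, 0 passed in limma and 0 reached an unadjusted p under 0.05, where 0.0335% and 5.35% of all genes did.

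**Figure D3:**
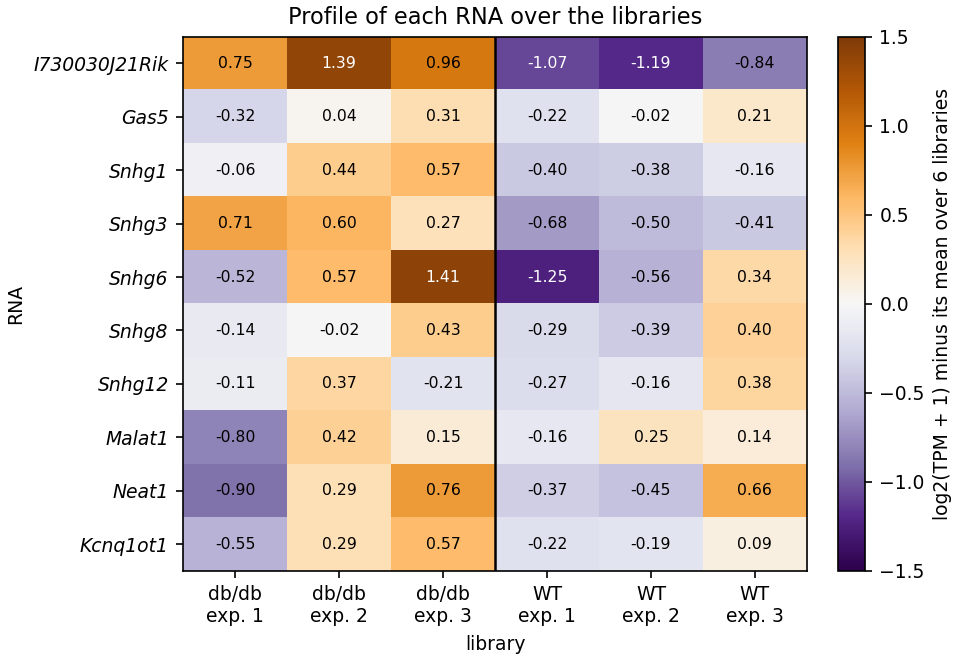
Each cell gives log2(TPM + 1) of a lncRNA in a library minus its mean over the 6 libraries, with db/db libraries left of the line and WT libraries right of it. I730030J21Rik is above its mean by 0.75 to 1.39 in the db/db libraries and below it in the WT libraries, and Neat1 and Snhg6 are high in experiment 3 of both genotypes.

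The order of the members by mean level differed between the genotypes, at its head and below it. In db/db the order was I730030J21Rik, Malat1, Snhg1, Gas5, Snhg3, Snhg12, Snhg8, Snhg6, Neat1 and Kcnq1ot1. Ranges of neighbours in this order overlapped except between Gas5 and Snhg3 and between Neat1 and Kcnq1ot1. In WT the order was Malat1, Gas5, Snhg1, I730030J21Rik, Snhg12, Snhg8, Snhg3, Neat1, Snhg6 and Kcnq1ot1. There each of the first 4 was separate from the next, and ranges overlapped between Snhg12 and Snhg8, between Snhg3 and Neat1 and between Neat1 and Snhg6.

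**Figure D4:**
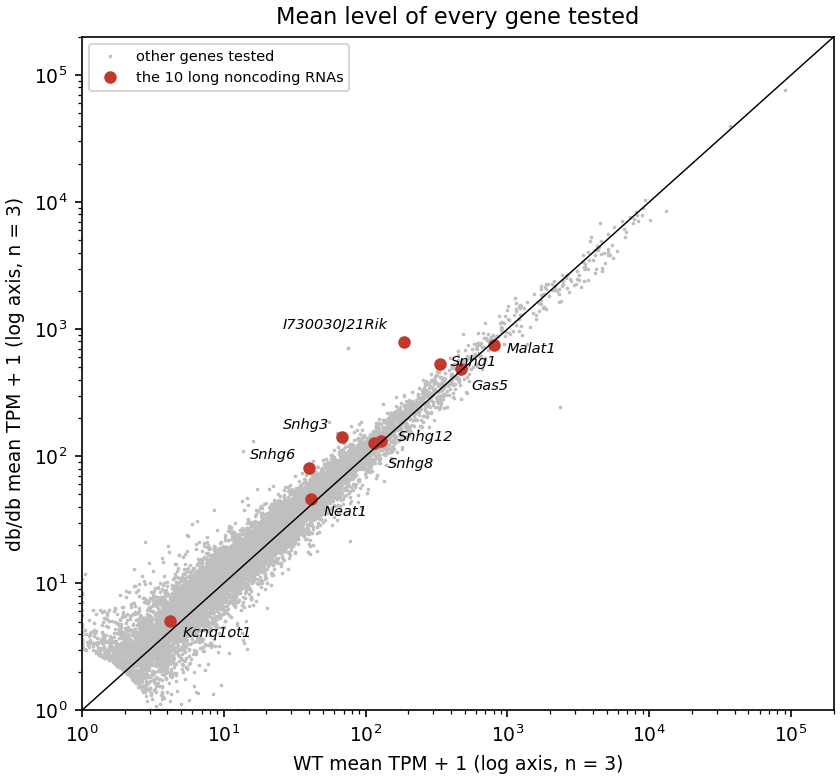
Mean TPM + 1 of every gene tested in db/db (vertical) and WT (horizontal), both on log axes, with the 10 lncRNAs in red and a line of equality. I730030J21Rik lies above the line at 796 TPM in db/db and 186 TPM in WT, and Malat1 and Gas5 lie near the line.

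Over the members together, the call in limma on all 11931 genes was made for 1 of 10, I730030J21Rik, where 0.0335% of all genes tested were called. That background is 4 symbols, I730030J21Rik, Ccl3, Hbb-b2 and Hbb-bt, all higher in db/db, and the rows of Hbb-b2 and Hbb-bt are identical. The call of I730030J21Rik was lost without db/db library 2 and without a filter on low values, and with the experiment as a block the count was 4 higher and 2 lower. Groups did not overlap, with db/db higher, for 3 of the 10 members, where 7.85% of all genes did so, and for 0 of 10 with db/db lower, where 2.32% did so. In 5 of 10 members db/db was higher in all 3 experiments, where 22.7% of genes were. Since the members were named with this contrast in view, nothing is read from these counts. The median log2 difference over the members was 0.20, beside 0.18 over all genes.

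The directions of 6 members depended on the processing. Malat1 was lower in db/db in 11 of 12 alternatives, Snhg8 higher in 11 of 12 and Kcnq1ot1 higher in 10 of 11, and Neat1, Gas5 and Snhg12 took both signs. Malat1 was higher only without db/db library 1 (0.20), and Kcnq1ot1 was lower only without db/db library 3 (-0.02). Snhg8 was lower only after median-of-ratios scaling (-0.008). I730030J21Rik, Snhg1, Snhg3 and Snhg6 were higher in db/db in all 12, including median-of-ratios scaling and quantile normalization, which brought the median of all genes to 0.00 and 0.01.

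Levels were also compared between the experiments, though the members were chosen with the values of these libraries in view. In 6 of the 10 members (Gas5, Kcnq1ot1, Neat1, Snhg1, Snhg6 and Snhg8) the library of experiment 3 was the highest of its genotype in both genotypes, where 31.3% of all genes tested had this pattern. Malat1 was highest in experiment 2 in both genotypes, as were 6.19% of genes. With genotype and experiment in 1 model, a comparison added after the values were seen, 0 members differed between experiments in limma after Benjamini-Hochberg adjustment, where 0.00838% of all genes were called, the single gene Elane. Snhg6 (unadjusted p = 0.000306 in that limma fit, adjusted p = 0.296), Neat1 and Malat1 were under 0.05 before adjustment, as were 8.67% of all genes. Size factors of the libraries, the median ratio of a library to the mean of all, were 0.90, 1.12 and 1.21 in db/db and 0.90, 0.80 and 1.12 in WT libraries 1, 2 and 3, so the library of experiment 3 had the highest factor in both genotypes. The part of the size factor in this pattern was not tested.

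Other noncoding RNAs were compared from a list of 60 names, of which 52 were in the table, 10 under an older symbol, and 34 were tested. Of these 0 passed in limma and 3 had an unadjusted p under 0.05, each higher in db/db, where 4.1% of all genes were higher at that level, and the median log2 difference was 0.24. The 3 were Snhg5, Snhg20 and Snhg17, and among the other hosts of small nucleolar RNAs on the list, Snhg18 and Snhg7, named here after their values were seen, had log2 differences of -1.03 and -0.44. Snhg5 was at 131, 129 and 177 TPM in db/db against 86.2, 75.5 and 127 TPM in WT libraries, which did not overlap but came close between db/db library 2 and WT library 3. Snhg20, listed as 2810008D09Rik, averaged 55.5 ± 18.6 TPM in db/db and 32.4 ± 18.7 TPM in WT, and Snhg17, listed as 9430008C03Rik, 21.2 ± 7.29 TPM and 11.2 ± 5.18 TPM (SD, n = 3 each). Limma gave Snhg5, Snhg20 and Snhg17 a Benjamini-Hochberg adjusted p of 0.919.

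The most abundant RNAs of that list overlapped between the genotypes apart from Snhg5. Rmrp and Rpph1 among them are not given the lncRNA type by RefSeq. Whether a library that selects poly(A) RNA counts Rmrp and Rpph1 in full was not tested. Xist, which silences an X chromosome in female cells, was at 107, 445 and 118 TPM in db/db against 165, 243 and 188 TPM in WT libraries. Rmrp, an RNA of the ribosomal RNA-processing ribonuclease, averaged 297 ± 109 TPM in db/db and 338 ± 40.6 TPM in WT. Rpph1, the RNA of ribonuclease P, averaged 298 ± 161 TPM in db/db and 293 ± 41.4 TPM in WT. Zfas1, listed as 1500012F01Rik and a host of small nucleolar RNAs, averaged 331 ± 38.5 TPM in db/db and 302 ± 77.8 TPM in WT (SD, n = 3 each).

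The next in abundance overlapped as well. 2900097C17Rik averaged 142 ± 40.6 TPM in db/db and 120 ± 61.1 TPM in WT. Snhg4 averaged 119 ± 14.02 TPM in db/db and 103 ± 30.8 TPM in WT. Snhg15, listed as Gm11974, averaged 118 ± 12.5 TPM in db/db and 103 ± 22.6 TPM in WT (SD, n = 3 each).

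Of the lncRNA symbols, 385 were tested, and beside I730030J21Rik, which was chosen for its difference, 0 passed in limma. Their median log2 difference was 0.19, beside 0.18 for all genes. Groups did not overlap with db/db higher for 39 of them, or 10.13%, beside 7.85% of all genes, and with db/db lower for 8, or 2.08%, beside 2.32%.

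**Figure D5:**
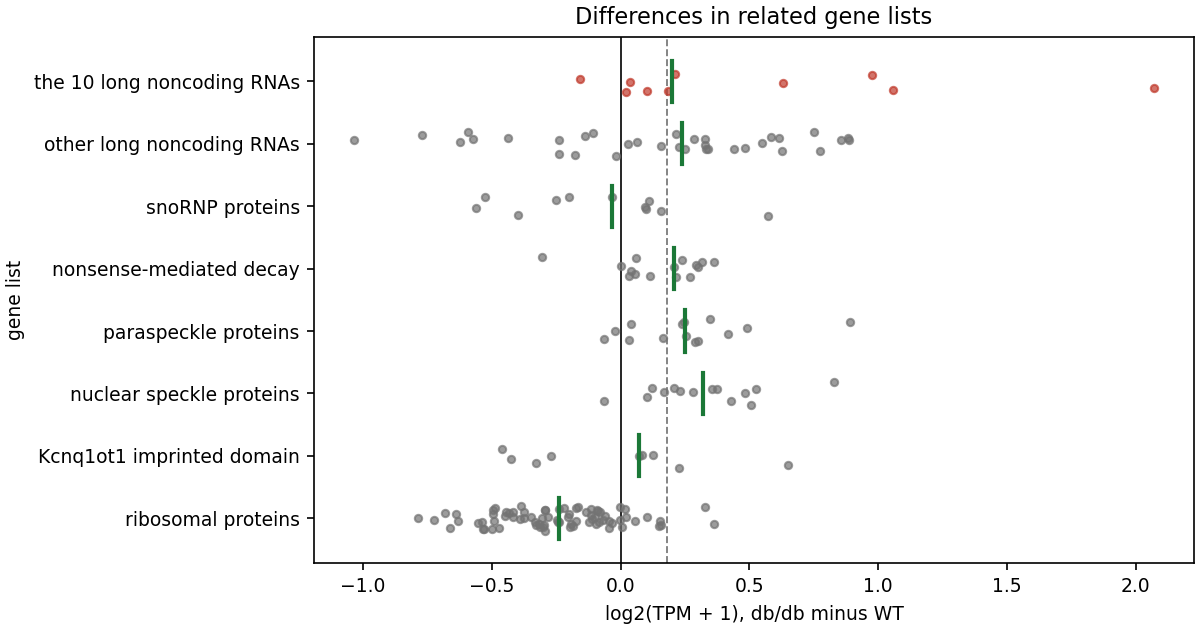
Difference in log2(TPM + 1), db/db minus WT, of each tested gene in the related lists, with a green bar at the list median and a dashed line at the median of all genes, 0.18. The ribosomal protein genes have a median of -0.24 and the nuclear speckle genes one of 0.32.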

How the data were processed

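RNA from sorted HSCs was linearly amplified and read from stranded mRNA libraries in pairs of 75 bases, per the labels' protocols. The authors deposited TPM per gene symbol, 1 column per library, made with RSEM and Bowtie2 on mm9, as the submitters' processing notes name them. Their versions, options and gene annotation are not given in the sources used here, and depth is unknown. In RSEM, reads shared by genes are divided by estimate.

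In R 4.3.3, limma 3.58.1 was fitted to log2(TPM + 1) of the 11931 genes that averaged 1 TPM or more, on genotype, trended moderation, two-sided tests and Benjamini-Hochberg adjustment at 0.05. This scale understates changes of low genes. The fit was tested on simulated data. The members and lists were chosen with earlier results of these data known. Named genes were the members, their nearest profiles and neighbours, and from each list those passing, of highest mean or of smallest p. Transcripts were compared with BLAST 2.17.0.

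The experiment numbers in the labels pair 1 db/db with 1 WT library. Correlations of the paired libraries' deviations from their group mean were 0.04, 0.012 and 0.16, and -0.12 to 0.081 for other pairs. No 2 libraries shared identical values in more than 0.654% of genes. Alternatives were another pseudocount, other filters, 2 other scalings, the replicate block and each library left out.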

Additional observations from a re-analysis of the deposited data

How the results depend on the processing

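I730030J21Rik was chosen for its difference in these libraries, so its values here describe that difference and are no evidence of it. Its log2 difference was 1.88 to 2.21 over 12 alternatives and 1.89 to 2.21 with any 1 library left out. Its limma call was lost without a filter on low values (2.07) and without db/db replicate 2 (1.89). The limma count of 4 genes higher and 0 lower was 0 higher without the filter, where 535 were higher at an unadjusted p under 0.05, and 1 higher, I730030J21Rik, after median-of-ratios scaling or quantile normalization. With a mean of at least 5 TPM 1 gene was lower, Rps27rt, and with the replicate block, where pairing by experiment kept the call of I730030J21Rik, 2 were lower, Rps27rt and Myl10. With 1 library left out 0 to 15 genes were higher and 0 to 1 lower. These extremes came without db/db replicate 2, where 0 passed and 333 were higher at an unadjusted p under 0.05, and without WT replicate 1, where 15 passed as higher. Among those 15 were the granulocyte genes S100a8, S100a9, Ngp, Camp, Ltf and Lcn2. Their sum was 4326 TPM in WT library 1, against 178 and 256 TPM in WT libraries 2 and 3. Without WT replicate 3 the count was 2 higher. The block changed no other call among the members, and 0 genes of the related lists passed under any alternative. The median over the members was 0.081 to 0.56 with 1 library left out, the 0.56 without db/db replicate 1, and 0.021 to 0.56 over all 12. TPM without depth allows no counting limits. Scaling shifted the genes at an unadjusted p under 0.05 from 489 higher and 149 lower to 297 higher and 355 lower (median-of-ratios). The cause of these changes was not tested.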
